A study of Drosophila melanogaster with 4 samples.

Results

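The middle of chromosome arm 3L of the fruit fly Drosophila melanogaster was described here by its clusters of H3K9ac, that is, regions enriched for histone H3 acetylated at lysine 9. The members are the clusters of 2 ChIP-seq lists on 3L whose midpoint lies from position 2000001 to 22543557 of FlyBase release 5, which leaves out the outer 2 Mb at each end of the arm. This gave 1149 of the 6545 clusters of ChIP replicate 1 (17.6%) and 1308 of the 7629 of ChIP replicate 2 (17.1%). The rule uses position only, so lengths, scores and spacing played no part in the choice. All samples came from whole larvae of the third instar of the wild-type Oregon-R strain, with 2 ChIP libraries and 2 input libraries and no other genotype or treatment. The chromatin was fixed with formaldehyde and sonicated. Whole larvae hold many tissues, so each cluster is an average over cell types, and a mark in few cells cannot be told apart from a weak mark in many. Nothing in the labels ties the replicates to separate batches of larvae, so their spread may be technical only.

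Acetylation of H3 at lysine 9 neutralises the positive charge of the lysine, loosens the contact of the histone tail with DNA and offers a binding surface to bromodomain proteins. It is placed by acetyltransferases of the Gcn5 type and removed by histone deacetylases. The mark is typical of promoters and the first part of transcribed genes. The euchromatic fly arms are known for an alternation of open, gene-dense stretches and condensed stretches, seen as the interbands and bands of polytene chromosomes. Gene positions of release 5 were not used here, so clusters are named by position and no sequence is shown.

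The deposited files give a start, an end and a score for each cluster without read counts, which leaves the sequencing depth unknown and allows no counting interval. The score is the authors' own value, and it behaves as the log2 of a ratio whose denominator is not stated. With 2 ChIP libraries no exact test can reach 0.05, and neighbouring bins or clusters are not replicates, so values of both libraries are given side by side with no p-value.

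H3K9ac clusters covered 3.47 Mb or 16.9% of its 20.5 Mb in replicate 1 and 3.63 Mb or 17.7% in replicate 2 (17.3% ± 0.557, SD, n = 2). The sequence covered in both libraries came to 2.87 Mb, or 14.0%, in 1056 separate regions, and 20.6% was covered in at least 1 library. Cluster density was 55.9 per Mb in replicate 1 and 63.7 per Mb in replicate 2, so the library with more clusters covered only slightly more sequence. At the limits, the first cluster inside on the telomere side lay at 2142564 to 2146195 in replicate 1 (score 0.77) and at 2131478 to 2133083 in replicate 2 (score 0.41). The nearest outside started at 1967286 and 1968229, with scores of 0.84 and 0.70. On the centromere side the last inside started at 22467006 and 22467007, with scores of 0.43 and 0.58. The nearest outside started at 22661155 and 22543254, with scores of 0.53 and 0.68.

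Cut into 205 full bins of 100 kb, the arm middle varied between strongly and hardly marked sequence at short range. A bin was called dense from 20% covered in both replicates and sparse up to 5%. By this measure 55 bins were dense (26.8%), 46 were sparse (22.4%) and 104 lay between. The bins had a median of 12.3% covered in both, quartiles of 6.59% and 21.4%, and a range from 0 to 46.7%. The dense bins alone held 53.2% of all sequence covered in both replicates, and the sparse bins held 2.83%. In 18 bins no sequence was covered in both lists, 12 of these held none of either list, and 9 of the 12 also held no sequence of the replicate-set list.

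**Figure D1:**
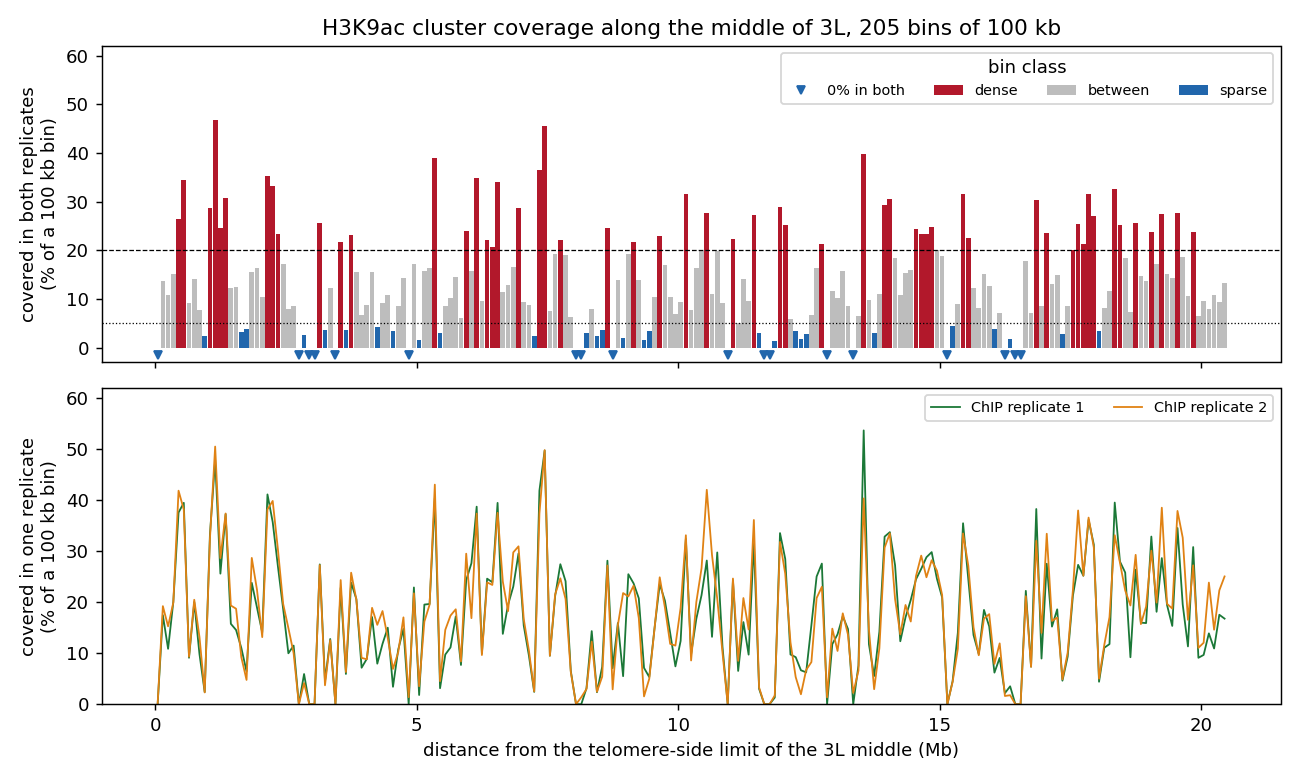
Share of each 100 kb bin covered in both replicates, coloured by class (top, dashed line 20%, dotted line 5%, triangles for bins at 0), and in each replicate alone (bottom), against the distance from the telomere-side limit in Mb. The 55 dense and 46 sparse bins are interspersed along most of the length, with no sparse bin beyond the 1 starting at position 20000001. The lines of the replicates run close together.

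Classes seldom persisted for long. The 55 dense bins formed 35 runs, of which 24 were single bins, and the 46 sparse bins formed 29 runs, of which 20 were single bins. A dense bin was followed by another dense bin in 20 of 55 cases (36.4%), against 26.8% dense bins in all. A sparse bin was followed by another in 17 of 46 cases (37.0%), against 22.4% in all. Going along the arm from each dense or sparse bin to the next of these, the class switched 41 times over the 101 bins, and in 15 of the 41 switches the bins were direct neighbours. Since like bins followed each other more often than their shares in all, these counts do not show an excess of switching. The number of switches for bins in random order was not worked out. The covered share changed by a median of 7.87 percentage points from a bin to the next. The sharpest step was 38.03 points, from 45.6% in the bin starting at 9400001 to 7.58% in the bin starting at 9500001. There the replicates ran in parallel, with 49.8% and 49.8% followed by 9.51% and 9.52%. The correlation of a bin with the next was r = 0.22 (204 pairs of bins). It was 0.08 at a distance of 2 bins and -0.10 at 3 bins. These are descriptions across bins of the same 2 libraries.

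The longest dense run held 5 bins, from 19500001 to 20000000, with a mean of 25.1% covered in both (28.3% in replicate 1 and 30.6% in replicate 2). It carried 45 clusters in replicate 1 and 54 in replicate 2. Among dense runs of at least 3 bins, the highest mean covered share was that of 4 bins from 3000001 to 3400000, with 32.7% in both and 38 and 41 clusters. This run was singled out after its values were seen. On the other side, 3 sparse runs reached 4 bins. They lay from 4700001 to 5100000 (mean 0.658% in both), from 13500001 to 13900000 (1.09%) and from 18200001 to 18600000 (0.443%), and each held 2 or 3 clusters per replicate. The run from 13500001 to 13900000 was bordered by a dense bin on each side.

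The densest bin started at 3100001, with 47.9% covered in replicate 1, 50.5% in replicate 2 and 46.7% in both, from 11 and 10 clusters. The next started at 9400001 (45.6% in both) and at 15500001 (39.8%). The bins starting at 7300001 and 9300001 followed with 39.1% and 36.5%. In the bin starting at 15500001 the replicates stood apart, with 53.7% in replicate 1 and 40.3% in replicate 2, although each listed 16 clusters. The sparsest bins are tied at 0. In order of position, the first 5 of the 12 bins empty in both lists start at 2000001, 4700001, 4900001, 5000001 and 5400001.

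Dense bins differed from sparse bins more in the number of clusters than in their length. In replicate 1 dense bins held 9.24 clusters on average and sparse bins 1.57, a ratio of 5.90, while mean cluster length differed 1.62 times (3430 bp against 2120 bp). In replicate 2 the ratios were 5.83 and 1.56, from 10.1 against 1.74 clusters and 3155 bp against 2027 bp. Both count and length enter the covered share that set the classes, so these ratios only split it into its parts. The score was not used for the classes, but it is not independent of them. It rose with cluster length (r = 0.63 in replicate 1 and 0.67 in replicate 2, on log10 length), and length enters the covered share. Clusters with higher scores also had a partner more often, and the classes use sequence covered in both. The median score was 0.88 in dense bins, 0.62 in bins between and 0.52 in sparse bins in replicate 1. In replicate 2 the medians were 0.73, 0.60 and 0.55. The spread between the classes was thus wider in replicate 1.

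Most clusters were of a few kilobases. The median length was 2449 bp in replicate 1 (quartiles 1934 and 3533 bp) and 2256 bp in replicate 2 (1684 and 3314 bp). The largest class was 2000 to under 3000 bp, with 390 clusters (33.9%) in replicate 1 and 417 (31.9%) in replicate 2. Clusters of 3000 to under 5000 bp made up 27.2% and 22.7% of the lists but the largest share of the summed cluster length, 33.5% and 30.1%. The class under 1500 bp differed most between the libraries, with 108 clusters (9.40%) in replicate 1 and 207 (15.8%) in replicate 2. The shortest member was 1302 bp in replicate 1 and 1301 bp in replicate 2, so the lists begin at about the same length. At the upper end, 123 clusters of replicate 1 and 116 of replicate 2 reached 5 kb (10.7% and 8.87%), and 9 and 10 reached 10 kb.

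Median scores were alike in the classes under 2000 bp and higher in the longer classes. These medians do not show where within the class of 2000 to under 3000 bp the score rose. Median scores were 0.45 in replicate 1 and 0.46 in replicate 2 under 1500 bp, and 0.45 and 0.48 from 1500 to under 2000 bp. They were 0.76 and 0.71 from 2000 to under 3000 bp, 1.09 and 0.99 from 3000 to under 5000 bp, and 1.16 and 1.15 from 5 to under 10 kb. Above that the replicates parted, with 1.30 over 9 clusters of replicate 1 and 1.10 over 10 of replicate 2. The correlation of log10 length and score was r = 0.63 over 1149 clusters and 0.67 over 1308, as a description across clusters.

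**Figure D2:**
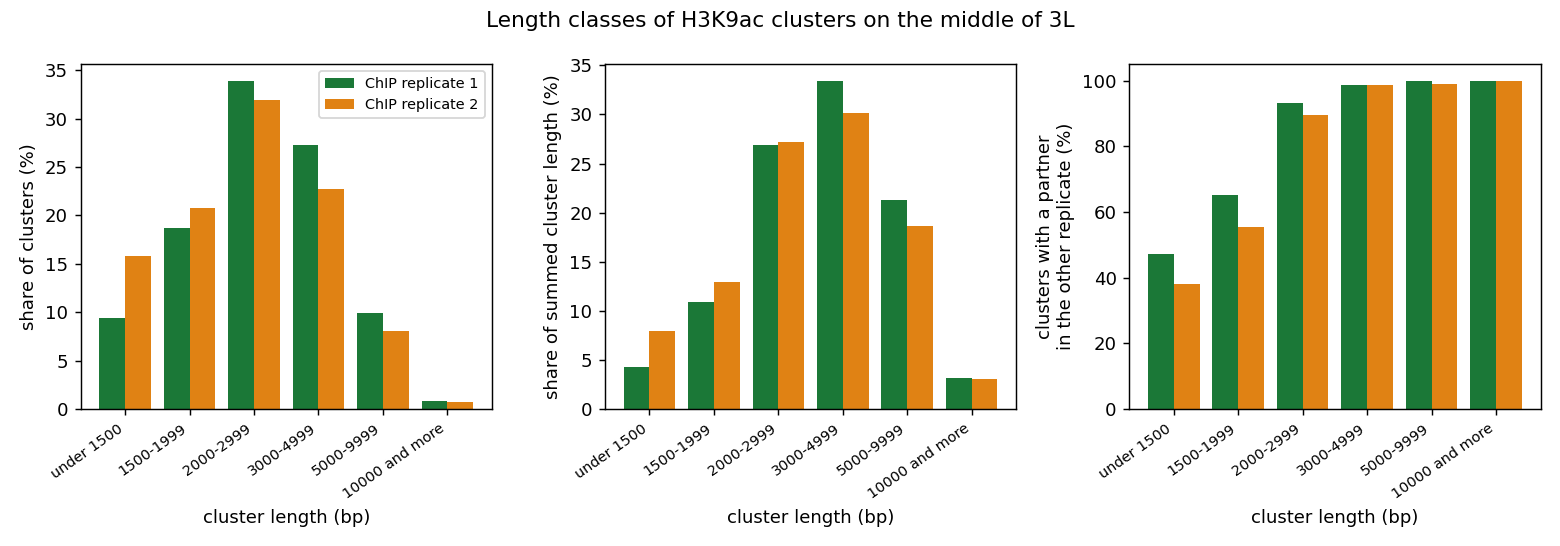
Share of clusters (left), share of summed cluster length (middle) and share of clusters that overlap a cluster of the other replicate (right) by length class in bp, with 1 bar for each ChIP replicate. The share with a partner climbs from 47.2% and 38.2% under 1500 bp to 100% in both replicates at 10 kb and more.

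Most of the broad acetylated stretches of the arm middle lay in dense bins, a class to which their own length contributes. Of the 90 regions of 5 kb or more covered in both replicates, 62 lay in dense bins, 28 in bins between and 0 in sparse bins. A sparse bin has at most 5% of its 100 kb covered in both. Only a region of exactly 5 kb or one crossing a bin edge could lie there, so the class limit strongly favours the 0. Of clusters of any length, dense bins held 44.2% in replicate 1 and 42.7% in replicate 2. The longest ran over 13187 bp from 16030949 to 16044135, with scores of 1.14 in replicate 1 and 0.96 in replicate 2 (1.05 ± 0.13, SD, n = 2). Replicate 1 listed it as a single cluster of 16708 bp. Replicate 2 listed a cluster of 11804 bp, an abutting one of 1383 bp and, after a gap, a further one of 3109 bp. The same domain was thus undivided in 1 list and in pieces in the other. The second was 12973 bp from 3158071 to 3171043 (1.30 and 1.10), and its ends in replicate 2 lay within 100 bp of those in replicate 1, at 3158049 and 3171105.

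The third was 12215 bp from 16572878 to 16585092, with nearly equal scores of 1.59 and 1.61. It was followed by 11367 bp from 17417016 to 17428382 (1.20 and 1.23), 9892 bp from 9368929 to 9378820 (1.64 and 1.53) and 9708 bp from 3191041 to 3200748 (2.02 and 1.74). The densest bin, starting at 3100001, held both the second and the sixth of these. All 6 lay in dense bins, and their own length counts towards that class.

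The highest-scoring regions were mostly shorter. The highest was 3539 bp from 17521164 to 17524702, with scores of 2.14 in replicate 1 and 2.17 in replicate 2 (2.16 ± 0.02, SD, n = 2). The next was 3392 bp from 4038755 to 4042146 (2.23 and 2.08), in a bin of only 10.5% covered. Then came 3026 bp from 14029279 to 14032304 (2.35 and 1.94), 5949 bp from 18890178 to 18896126 (2.10 and 1.99) and 2902 bp from 21278289 to 21281190 (2.08 and 2.01). The sixth was 5224 bp from 22065970 to 22071193 (1.98 and 2.11). Of these 6, 4 lay in dense bins and 2 in bins between, and no region was among both the 6 longest and the 6 highest. Over the 1056 regions, log10 length and mean score had r = 0.46.

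Neighbouring clusters were mostly a few kilobases apart, while a small number of long gaps held a large share of the unmarked sequence. The median gap from a cluster's end to the next start was 5020 bp over 1148 gaps in replicate 1 and 4184 bp over 1307 in replicate 2 (4602 ± 591 bp, SD, n = 2). The mean gaps were far longer, 14684 and 12783 bp. Gaps under 1000 bp made up 20.5% and 20.2% of all gaps but 0.645% and 0.705% of the gap sequence. Gaps from 50 to under 100 kb were 64 and 69 in number (5.57% and 5.28%) and held 25.4% and 28.2% of it, and the 20 and 16 gaps of 100 kb or more held 19.5% and 15.4%. The middle 50% of gaps ran from 1519 to 15846 bp in replicate 1 and from 1368 to 13341 bp in replicate 2. The length of a gap was only weakly related to that of the next (r = 0.08 on the log10 scale in each replicate), and so was a cluster's length to the next cluster's (r = 0.08 in each). Scores of neighbours were more alike, with r = 0.24 and 0.20.

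**Figure D3:**
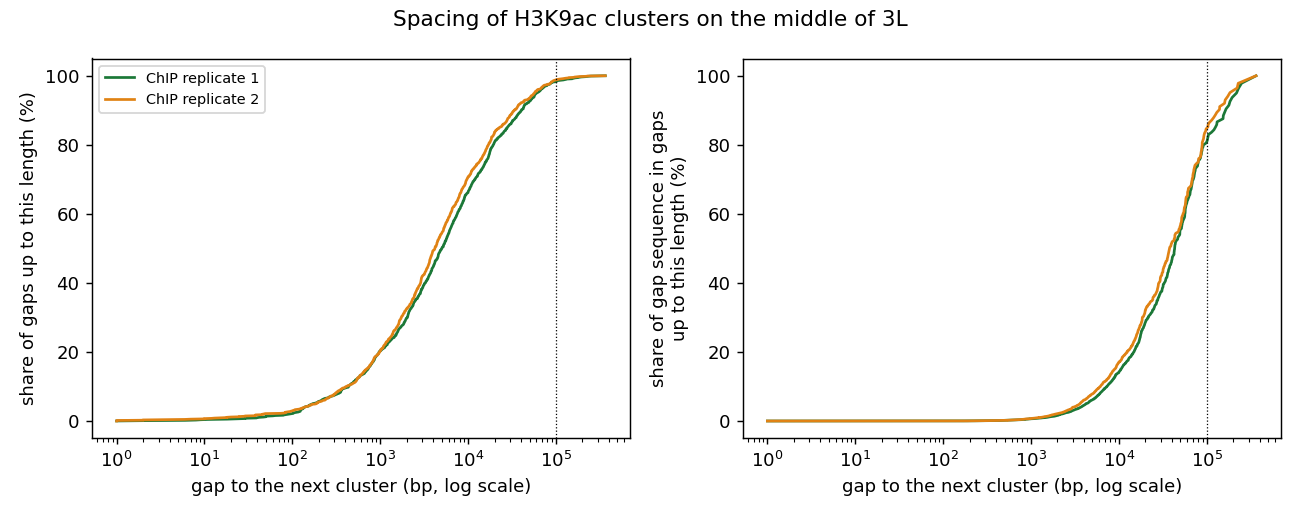
Cumulative share of gaps (left) and of gap sequence (right) up to a given gap length in bp on a log scale, for each ChIP replicate, with a dotted line at 100 kb. The curves of the replicates nearly coincide at short gaps, and gaps of 100 kb or more, 20 and 16 in number, account for 19.5% and 15.4% of the gap sequence.

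Clusters standing alone had lower median lengths and lower partner shares than closely packed ones. With the nearest neighbour at 10 kb or more, the median length was 2177 bp over 150 clusters in replicate 1 and 1961 bp over 138 in replicate 2. With the nearest neighbour under 2000 bp it was 2683 bp over 566 and 2313 bp over 700. The shares with a partner were 74.0% and 63.8% for the former and 89.6% and 80.7% for the latter. Median scores were 0.55 against 0.73 in replicate 1 and 0.59 against 0.61 in replicate 2, so the score difference was slight in the second library. Whether length or score accounts for the difference in partners was not tested.

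Long deserts broke up the arm middle at 16 places. Together the stretches of 100 kb or more without a cluster of either replicate spanned 2.503 Mb, or 12.2% of the region. Stretches that reach a limit of the region were not counted. The empty stretch from the telomere-side limit to the first cluster, which started at 2131478 in replicate 2, also exceeded 100 kb. It is therefore left out of the count and of the ranking below. The longest, from 13508044 to 13871608 (364 kb), was bounded in nearly the same way in both lists, since the free stretch was 363.958 kb in replicate 1 and 363.565 kb in replicate 2. The cluster on its left scored 1.32 in replicate 1 and 1.33 in replicate 2, while that on its right scored 0.40 and 0.36. The second, from 4898494 to 5126508 (228 kb), ended at a cluster of 9152 bp in replicate 1 and 9078 bp in replicate 2, with scores of 1.40 and 1.54. A desert could therefore abut a broad domain directly.

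The third desert spanned 218 kb from 18395953 to 18613962, and the fourth 184 kb from 17049870 to 17233654. The fifth was 173 kb from 5362042 to 5535413, next to a cluster scoring 1.84 in replicate 1 and 1.87 in replicate 2. The sixth to eighth were 159 kb from 15332196 to 15491317, 140 kb from 9967291 to 10107676 and 131 kb from 9202511 to 9333513. The other 8 measured 103 to 130 kb. Of the 32 flanks of the 16 deserts, 18 had a cluster of each list within 1000 bp of the edge.

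Only a few clusters separated some neighbouring deserts. The seventh was separated from another of 107 kb by 1 cluster of 1371 bp, found in replicate 2 only with a score of 0.59, and in replicate 1 the free stretch was 249 kb. The third was separated from another of 103 kb by 2 clusters of replicate 1 (2041 and 1475 bp, scores 0.64 and 0.47) and 1 of replicate 2 (1771 bp, score 0.43). Deserts were uneven along the arm. The largest distance from a desert to the next was 3155 kb, from 6047405 to 9202510, while the median was 370 kb. After the desert that ended at 18613962, none followed up to the limit on the centromere side. That last stretch is longer than the 3155 kb but is not among the distances between deserts. The list of the replicate set placed 15 clusters in the 16 deserts, with scores up to 0.52, and 7 deserts held none. The mappable share of the deserts was not analysed here.

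The replicates marked the same bins to a similar extent. Over the 205 bins the covered shares had Pearson's r = 0.94 and Spearman's rho = 0.94, as a description across bins that share their libraries. Classed by each list alone with the same limits, 76 bins were dense in replicate 1 and 81 in replicate 2, with 71 shared, and 31 and 37 were sparse, with 30 shared. No bin was dense in 1 list and sparse in the other, and 182 of the 205 had the same class. Replicate 2 covered more in 108 bins, replicate 1 in 85, and 12 were equal at 0. The mean difference was 0.789 percentage points with an SD of 3.98 over bins, and 176 bins were within 5 points.

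**Figure D4:**
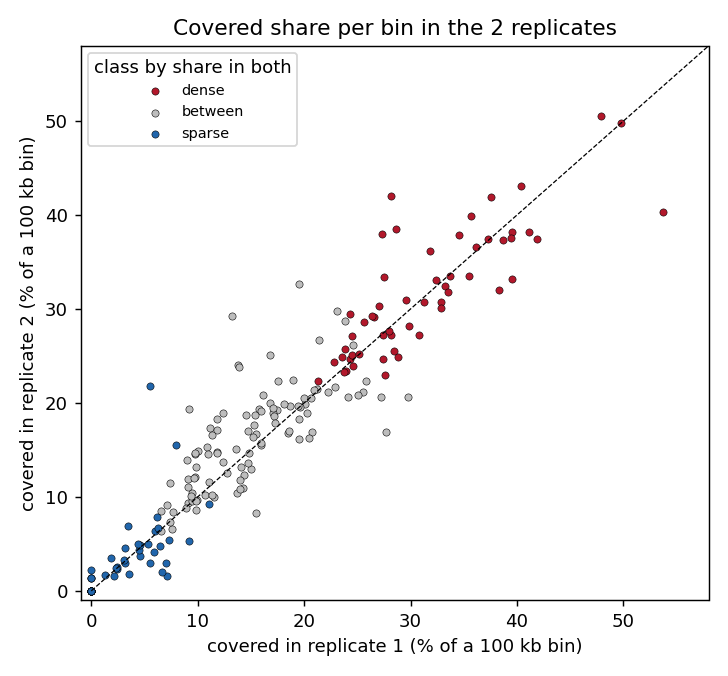
Share of each of the 205 bins covered in replicate 1 (x axis, %) and replicate 2 (y axis, %), coloured by the class set on sequence covered in both, with a dashed line of equality. Points follow the line (r = 0.94), with a few bins, such as the dense bin at 53.7% and 40.3%, well off it.

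The few bins where the libraries parted were close together in places. The bin starting at 10900001 had 5.51% covered in replicate 1 and 21.8% in replicate 2, from 3 and 10 clusters, and only 1.93% in both. The bin starting at 12600001 had 13.2% and 29.2%, and its neighbour from 12500001 had 28.2% and 42.0%, but the next, from 12700001, turned the other way with 29.8% and 20.7%. The other bins furthest towards replicate 1 started at 15500001 (53.7% and 40.3%) and 8000001 (27.7% and 16.9%). In the bins of 10900001 and 12600001 the replicate-set list held 21 and 22 clusters, more than either replicate. That list was also the longest over the whole arm middle, with 1896 clusters against 1149 and 1308. A higher count is thus not particular to these bins.

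Agreement was closer where the mark was dense. The Jaccard index, the sequence covered in both divided by that covered in either, was 0.777 in dense bins, 0.622 in bins between and 0.356 in sparse bins, against 0.680 for the whole arm middle. The classes were set on sequence covered in both, which favours this order. Of the clusters centred in dense bins, 91.7% of 508 in replicate 1 and 86.6% of 558 in replicate 2 had a partner. In sparse bins it was 56.9% of 72 and 50.0% of 80.

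Overall partner shares were 85.8% in replicate 1 (986 of 1149) and 77.2% in replicate 2 (1010 of 1308). All 381 clusters of replicate 1 and all 312 of replicate 2 scoring above 1 had a partner. Below that, 88.6% and 76.5% of the clusters scoring from 0.5 to 1 had a partner, and 62.4% and 56.6% of those up to 0.5. Clusters that lacked a partner were short, at the median 1638 bp over 163 in replicate 1 and 1533 bp over 298 in replicate 2. Some clusters were cut differently, since 65 clusters of replicate 1 overlapped at least 2 of replicate 2, and 47 of replicate 2 overlapped 2 of replicate 1.

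The unpartnered clusters with the highest scores were modest. In replicate 1 they lay at 20309627 to 20312108 (0.75), 8088969 to 8091706 (0.69) and 2427991 to 2430363 (0.65). In replicate 2 they lay at 21243534 to 21246091 (0.78), 5793235 to 5795370 (0.77) and 6843642 to 6845037 (0.76). The last was 56847 bp from the nearest cluster of replicate 1, whereas the other 5 were within 5 kb of a cluster of the other list. All 6 overlapped a cluster of the replicate-set list.

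Where a cluster met exactly 1 of the other list, its edges were placed at similar positions. Over 846 such pairs the starts differed by a median of 104 bp and the ends by 100 bp, and in 433 pairs both edges were within 200 bp. The starts differed by more than 1000 bp in 56 pairs and the ends in 45. Log10 lengths had r = 0.86 and scores r = 0.93 (Spearman's rho 0.91). The score was higher in replicate 1 in 536 pairs (63.4%), with a mean difference of 0.06 ± 0.16 (SD over 846 pairs).

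In windows of 1 Mb the covered share in both replicates went from 5.71% to 20.7%, with a median of 13.6%. The fullest window, from 8000001 to 9000000, had 25.03% in replicate 1 and 25.17% in replicate 2, 5 dense bins and no sparse one. It was followed within a short distance by the emptiest, from 10000001 to 11000000, with 8.38% and 9.19%, 1 dense bin and 7 sparse ones. Of the 20 windows, 16 held both dense and sparse bins, 3 held no sparse bin and 1 held no dense bin.

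The Jaccard index by window had a median of 0.703. It was lowest, 0.481, in the emptiest window and highest, 0.789, from 5000001 to 6000000. The ratio of the covered shares, replicate 2 to replicate 1, ran from 0.856 to 1.20, and replicate 2 was higher in 13 windows. The 5 windows from 14000001 to 19000000 were all lower in replicate 2, although the differences of the last 2, -0.0107 and -0.004 points, were close to 0. The mean score of pairs was higher in replicate 1 in 19 windows, by up to 0.09, and in the remaining window the difference was -0.00077. Single pairs varied with an SD of 0.12 to 0.20 by window.

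**Figure D5:**
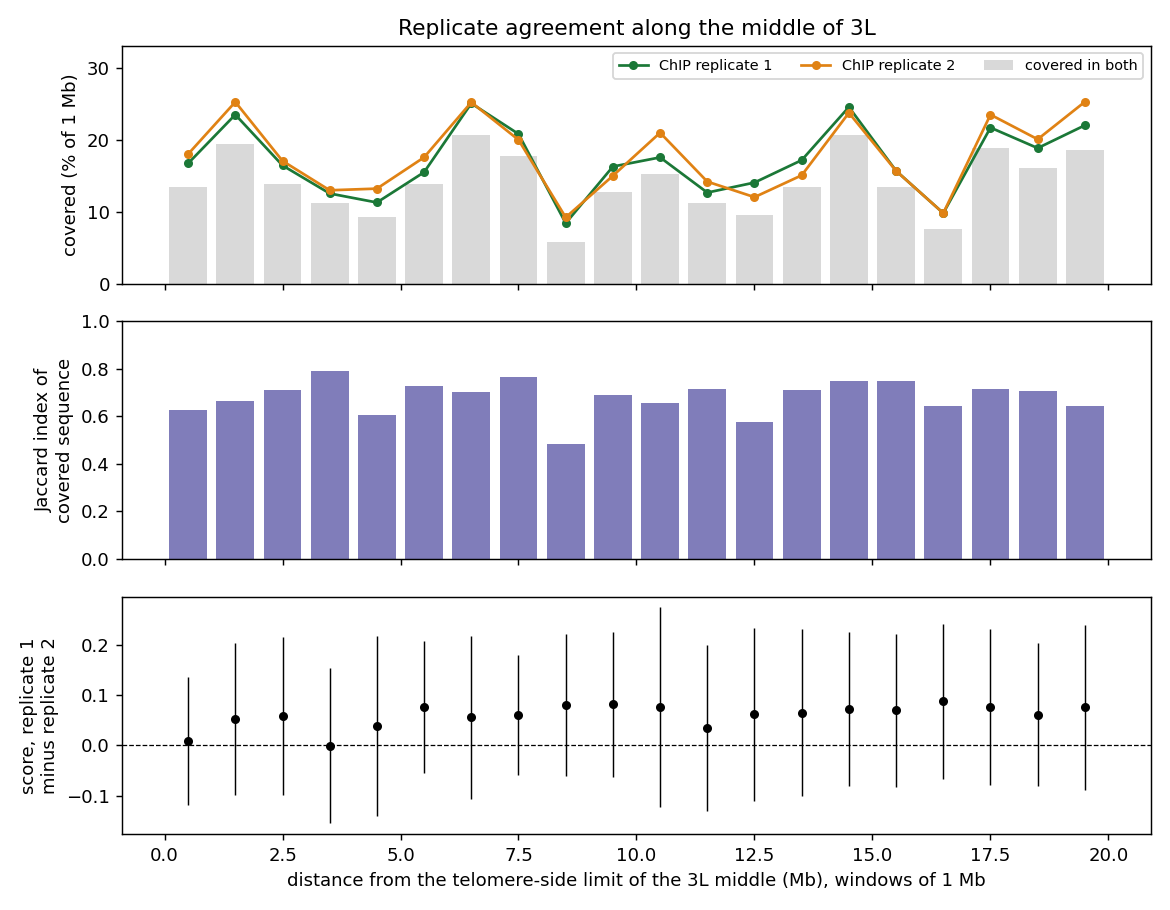
Share covered in each replicate (points) and in both (bars) in windows of 1 Mb (top), Jaccard index of covered sequence (middle), and mean score difference of paired clusters with the SD over pairs (bottom), against the distance from the telomere-side limit in Mb. The index dips to 0.481 in the emptiest window, and the mean score difference is above 0 in 19 of 20 windows.

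Beside the middles of 2L and 3R, cut by the same rule, 3L had fewer long deserts. It held 16 of 100 kb or more (7.79 per 10 Mb, 12.2% of the sequence), against 28 on 2L (14.7 per 10 Mb, 23.9%) and 30 on 3R (12.5 per 10 Mb, 18.9%). The longest desert of 3L, 364 kb, nonetheless lay between those of 2L (478 kb) and 3R (335 kb). Sparse bins made up 22.4% on 3L, 30.0% on 2L and 23.8% on 3R, and dense bins 26.8%, 24.7% and 31.4%. Relative to its mean, the bin share varied least on 3L, with a coefficient of variation of 0.732 against 0.848 and 0.807. The correlation of neighbouring bins was 0.22 on 3L, 0.37 on 2L and 0.19 on 3R.

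Broad marks were compared in the same way. Clusters of 5 kb or more were 10.7% and 8.87% of the lists on 3L, 11.8% and 8.84% on 2L and 14.7% and 11.0% on 3R, and regions of 10 kb or more covered in both numbered 4, 8 and 10. The replicate spread of the 5 kb shares (SD 1.30, 2.12 and 2.64 points, n = 2 each) is as large as the difference between 3L and 2L. Covered shares were 17.3% ± 0.557 on 3L, 16.3% ± 0.398 on 2L and 19.0% ± 0.881 on 3R (SD, n = 2). The Jaccard index was 0.680, 0.677 and 0.713. No test of a difference between arms was made, so none of these values is shown to be particular to 3L.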

How the data were processed

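H3K9ac was measured by ChIP-seq, and 3 lists of enriched regions were used, 1 per ChIP replicate and 1 for the replicate set. The input libraries entered no comparison. The authors mapped reads with Bowtie 0.12.7 according to the submitters' processing notes. Per the file headers, positions follow FlyBase release 5. The peak caller, the threshold and the choice of input are not stated in these sources. The deposited score of a cluster is the authors' value. Read as log2, 700 of 780 differences among the 40 commonest scores of replicate 1, and 768 in replicate 2, gave ratios of whole numbers (denominators up to 5000, relative tolerance 1e-11). Read as natural log or log10, at most 1 did.

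From these lists, clusters were selected by midpoint, read as 1-based inclusive intervals and compared by an overlap of at least 1 bp, against all clusters of the other list on 3L. Coverage was computed per base and summed over full bins of 100 kb, which left out the last 43.6 kb. A region covered in both takes the highest score of the clusters behind it in each list. Regions were named by rank: the 6 longest, the 6 highest by mean score, the 8 longest deserts, the 5 densest and sparsest bins, the longest runs, the 3 highest unpartnered clusters of each list and the 3 bins of largest difference in each direction. Members, measures and limits were chosen with earlier results of these data known. The alternatives tried were the top 50% of each list by score, the replicate-set list, each replicate alone, 3 Mb ends, 50 and 200 kb bins, limits of 25% and 2.5%, joining under 500 bp and an overlap of 50%. Python 3.11.15, numpy 2.4.6 and pandas 2.3.3 were used, and the interval functions were tested on simulated data.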

Additional observations from a re-analysis of the deposited data

Results flagged for a closer look

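The list of the replicate set holds clusters on the middle of 3L that neither replicate's list overlaps, so they lie outside the replicate lists compared above. Whether they mark true enrichment was not tested. There were 590 of 1896 such clusters (31.1%), scoring 0.34 at the median and measuring 1249 bp, against 0.76 and 3453 bp for the 912 that overlap both lists. Of the 590, 338 were shorter than the shortest cluster of either replicate. They numbered 25.3 per Mb in dense bins, 32.7 per Mb in bins between and 24.1 per Mb in sparse bins. As a share of the replicate-set clusters, they were 21.3% of 653 in dense bins, 33.1% of 1026 in bins between and 51.2% of 217 in sparse bins.

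One of them had the highest score of the replicate-set list on the arm middle, 2.91. It lay at 17510166 to 17511166, was 1001 bp long, the shortest length in that list, and started 860 bp after the nearest replicate cluster. Among the 590 it alone scored above 1, and the next had 0.87. The next replicate cluster lay 9904 bp beyond its end and belongs to the highest-scoring region covered in both replicates, 17521164 to 17524702. The cause of the score of 2.91 was not tested.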

How the results depend on the processing

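Of 42 comparisons with an alternative, 17 moved by no more than the spread between replicates and 25 moved by more. For the number of deserts the limit was a change of 1.5 times instead. The alternatives changed the clusters used, the lists required, the bin size, the class limits or the joining. For the median gap and the share at 5 kb or more, the main value is the mean of the 2 lists. A single list could not differ from it by more than their SD, so those comparisons, counted among the 17, test nothing. In the top 50% of clusters by score, the share covered in both fell from 14.0% to 9.05%, dense bins to 13.7% and sparse bins made up 39.0%, the median gap was 10691 bp, clusters of 5 kb or more made up 18.9%, deserts numbered 41 and 90.4% had a partner. In the replicate-set list the share covered was 26.2%, dense bins 63.4%, sparse bins 10.7%, the median gap 2530 bp and clusters of 5 kb or more 11.3%, with 11 deserts. In a single list, without replicate 1 or without replicate 2, the covered share was 16.9% to 17.7%, dense bins 37.1% to 39.5% and sparse bins 15.1% to 18.0%. The main values of these 3 measures rest on sequence covered in both lists. A single list could therefore only raise the covered share and the dense bins and lower the sparse bins, so the direction of these moves was fixed in advance. The median gap was 4184 to 5020 bp, clusters of 5 kb or more 8.87% to 10.7% and deserts 16 to 20. Bins of 50 kb gave 28.8% dense and 32.4% sparse, and bins of 200 kb gave 11.8% sparse. A limit of 25% gave 15.6% dense bins, and 2.5% gave 13.2% sparse bins. Joining clusters under 500 bp apart gave a median gap of 5772 bp and 15.6% of clusters at 5 kb or more. Leaving out 3 Mb at each end moved none of the 7 results beyond the spread between replicates. No paired analysis was possible because no list of the input libraries was compared and no value comes from a test. The depth is unknown, so limits of detection cannot be given.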
